A study of Bos taurus with 48 samples.

Results

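The growth hormone receptor gene GHR and the insulin-like growth factor genes IGF1 and IGF2 were followed in 3 tissues of dairy calves raised on 3 feeding levels. They are 3 of the 27607 genes counted in every library. Members were chosen by Ensembl identifier: ENSBTAG00000001335 is GHR, ENSBTAG00000011082 is IGF1 and ENSBTAG00000013066 is IGF2. These names came with the selection, because the count tables list identifiers without names. All 3 genes had counts in all 47 libraries and passed the filter on low counts in every comparison.

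Growth hormone from the pituitary binds GHR on target cells, and in liver this drives synthesis of IGF1, much of which enters the circulation. IGF1 is also made locally in many tissues, the mammary gland included, where it promotes growth of the ducts. IGF2 is an imprinted growth factor gene with high activity in fetal and early postnatal life. In cattle, milk intake and energy supply are known to bear on the hepatic growth hormone and IGF1 axis.

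RNA was sequenced after ribosomal RNA depletion from liver, from mammary parenchyma (the tissue of growing epithelial ducts) and from mammary fat pad (the adipose bed around it). Unlimited calves were offered milk replacer ad libitum at timed meals, restricted calves a reduced daily ration of it, and control calves a standard ration. Each tissue had 6 unlimited and 6 restricted libraries, and there were 4 liver, 3 parenchyma and 4 fat pad control libraries. Another control sample of parenchyma was not analysed here, and age is not given in the sources used here. The question of the design is whether milk supply alters expression in the gland and in liver. Separate animals are not stated for the libraries of a group, and the p-values therefore reflect only how these samples spread, which may be technical.

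Gene-assigned reads numbered 5.59 to 24.2 M (mega) a library, with a median of 13.8 M. GHR had 175 to 11940 counts in a library, IGF1 299 to 4638 and IGF2 11899 to 123955. Levels are counts per M gene counts (CPM), which are not corrected for gene length, so they compare libraries and not genes. Log2 differences below are from edgeR's quasi-likelihood test on TMM-scaled counts with standard errors (SE), and a call means p under 0.05 after Benjamini-Hochberg adjustment across every gene of the comparison. Fewer cells of a type and less RNA per cell cannot be told apart in such tissue libraries. Defining markers of each tissue could not be looked up without gene names, so the tissue labels were checked only by position between the mammary tissues, where 0 is the mean of restricted and unlimited parenchyma and 1 that of restricted and unlimited fat pad. The scale was set by these labelled libraries, leaving out the one placed. It can show a library that strays from its group, but not which tissue a group is. On that scale the restricted and unlimited libraries of fat pad lay at 0.808 to 1.10 and those of parenchyma at -0.0381 to 0.0850. The 4 libraries labelled fat pad control stood apart from their tissue, at -0.0337, 0.0296, 0.122 and 0.551 for numbers 1, 2, 21 and 18, and the titles of numbers 1 and 2 carry PAR, the abbreviation for parenchyma in the title of the series, though not in the titles of its parenchyma samples. The parenchyma control sample not analysed here, number 2, carries PAD in its title. Comparisons with fat pad control are therefore given with and without libraries of that group.

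In liver, IGF1 differed most between diets by group mean, and GHR and IGF2 differed less. IGF1 averaged 193 ± 77.0 CPM in unlimited livers (SD, n = 6), 131 ± 98.7 CPM in restricted livers (SD, n = 6) and 59.1 ± 25.6 CPM in control livers (SD, n = 4). Its lowest, median and highest levels were 116, 177 and 280 CPM in unlimited livers and 58.2, 90.6 and 324 CPM in restricted livers. Control livers had 90.9, 48.8, 65.9 and 30.7 CPM. Every unlimited liver was thus above every control liver, while the restricted livers ran across both ranges. The share of all genes that part these libraries in the same way was not counted. The restricted liver numbered 8, at 324 CPM, stood far above the other 5 restricted livers.

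**Figure D1:**
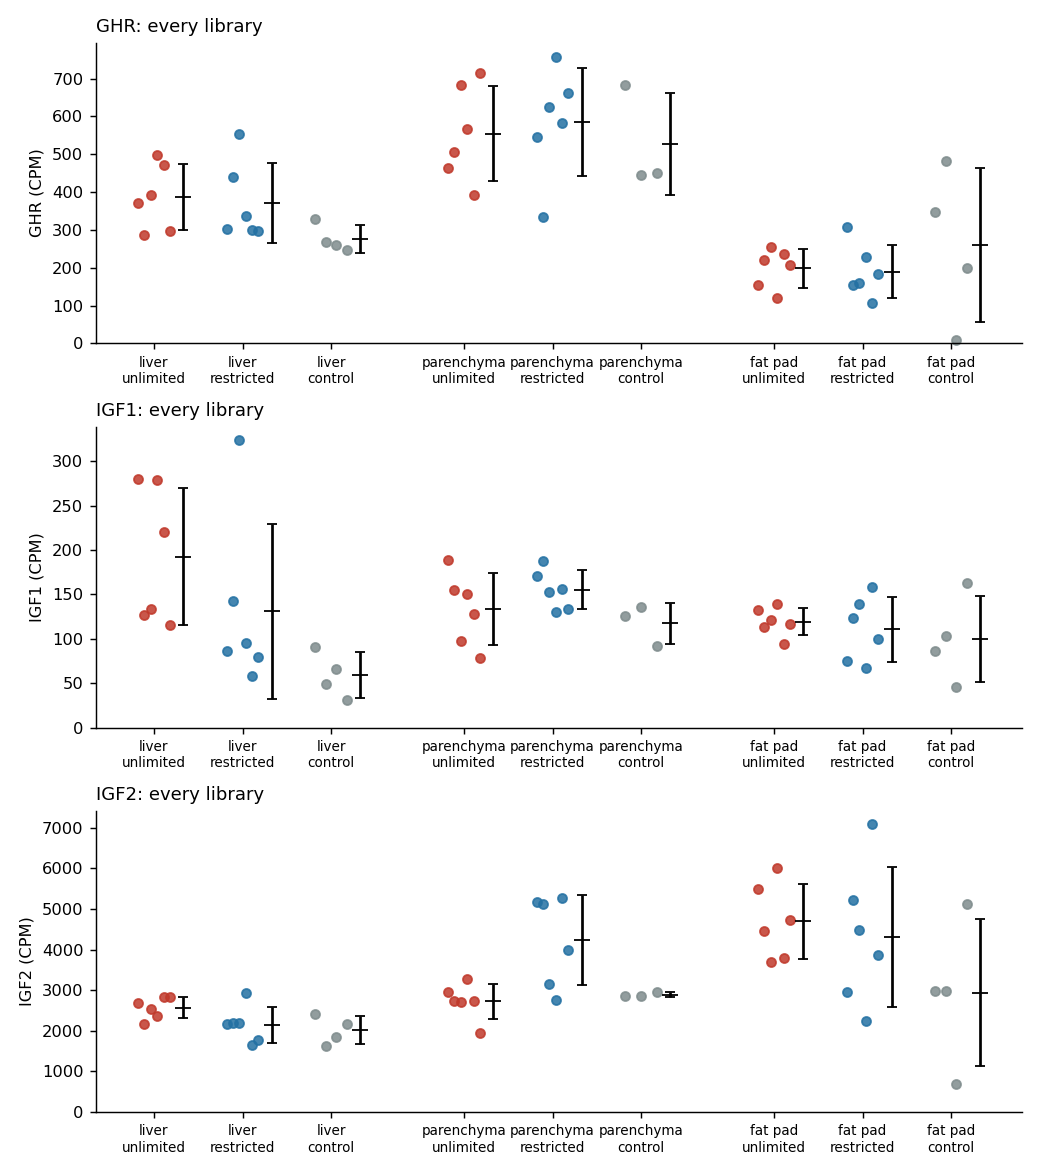
Levels of GHR, IGF1 and IGF2 in CPM (counts per M gene counts, linear axes from 0) in every library, by tissue and diet; points are libraries, and the black marks beside them are the group mean with its SD. GHR is lowest in fat pad by group mean, IGF1 is lowest in control livers, and 1 fat pad control library holds GHR at 9.97 CPM, under every other library.

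The ratio of mean IGF1 levels between unlimited and control livers was 3.26, and the log2 difference was 1.60 ± 0.35 (SE). edgeR's adjusted p was 0.0718 (unadjusted 0.000498), so the gene was not called, in a comparison that called 0.482% of 14114 genes. DESeq2 called it, with an adjusted p of 0.000692, and the fit of all 9 groups together did so with 0.0230. These called 282 of 14099 and 166 of 17901 genes. Over all alternatives the adjusted p ranged between 0.000692 and 0.264. Without the control liver numbered 1 edgeR's adjusted p was 0.0487, where 31 of 14503 genes were called. That liver had the fewest gene counts of all libraries, at 5.59 M. It and the fat pad control numbered 1 were the only libraries whose counts record unaligned reads, at 16.0 and 14.4 M. The part of this in the difference was not tested. Assigned reads made up 25.5% to 37.1% of uniquely placed reads in unlimited livers and 21.7% to 34.4% in control livers, and their part in the difference was not tested beyond a covariate, with which the log2 difference was 1.56 and the adjusted p 0.109.

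Between restricted and control livers, IGF1 differed by 1.17 ± 0.48 (log2, SE) with an adjusted p of 0.318, where 0.850% of genes were called. Between unlimited and restricted livers the log2 difference was 0.43 ± 0.38, with an adjusted p of 0.648, where 0.0143% of genes were called. Neither difference passed the test. Without the restricted liver numbered 8 they were 0.74 and 0.86.

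GHR, the receptor through which growth hormone acts on the hepatocyte, averaged 386 ± 87.2 CPM in unlimited, 372 ± 105 CPM in restricted and 276 ± 36.1 CPM in control livers (SD, n = 6, 6 and 4). Its lowest, median and highest levels were 286, 382 and 497 CPM in unlimited livers and 297, 319 and 554 CPM in restricted livers, and control livers had 329, 268, 261 and 247 CPM. The groups overlapped, although 4 of 6 unlimited livers and 3 of 6 restricted livers exceeded every control liver. The log2 difference was 0.37 ± 0.24 for unlimited against control (edgeR adjusted p 0.661), 0.46 ± 0.21 for restricted against control (adjusted p 0.363) and -0.08 ± 0.21 for unlimited against restricted (adjusted p 0.901), none of them past the threshold.

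IGF2, which in mouse and rat liver is strongly expressed before birth and shut down afterwards, was present in every calf liver. It averaged 2567 ± 267 CPM in unlimited, 2147 ± 445 CPM in restricted and 2012 ± 346 CPM in control livers (SD, n = 6, 6 and 4). Unlimited livers spanned 2154 to 2828 CPM with a median of 2609, restricted livers 1651 to 2920 CPM with a median of 2172, and the control livers had 2415, 1623, 1852 and 2157 CPM. The groups overlapped in all comparisons, and 4 of 6 unlimited livers exceeded every control liver. The log2 differences of 0.21 ± 0.25, 0.12 ± 0.25 and 0.09 ± 0.18 for unlimited against control, restricted against control and unlimited against restricted had edgeR adjusted p-values of 0.853, 0.895 and 0.863.

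In parenchyma, IGF2 had a lower mean level in unlimited than in restricted calves, though edgeR called none of its diet differences. It averaged 2720 ± 439 CPM in unlimited, 4239 ± 1112 CPM in restricted and 2889 ± 63.1 CPM in control parenchyma (SD, n = 6, 6 and 3). Unlimited libraries had a lowest, median and highest level of 1936, 2733 and 3266 CPM, and restricted libraries of 2750, 4551 and 5262 CPM. The 3 control libraries had 2852, 2854 and 2962 CPM. Thus 4 of 6 unlimited libraries lay below every restricted library, and 5 of 6 restricted libraries lay above every control library.

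Between unlimited and restricted parenchyma the log2 difference of IGF2 was -0.50 ± 0.19 (SE), with an unadjusted p of 0.0176 and an edgeR adjusted p of 0.0906, so it was not called where 12.6% of 14117 genes were. The adjusted p was 0.0376 in DESeq2, 0.0260 with scaling by total gene count (log2 difference -0.64, where the median of all genes was -0.16) and 0.0347 without the restricted library numbered 10. In that order, 2597 of 14108, 2499 of 14117 and 2357 of 14310 genes were called. Position between the tissues moved with this difference: unlimited libraries lay at -0.0381 to -0.0047 and restricted libraries at -0.0186 to 0.0850. With position as a covariate the log2 difference was 0.04, with an adjusted p of 0.993. Diet and position moved together, so their parts in the difference cannot be told apart.

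**Figure D2:**
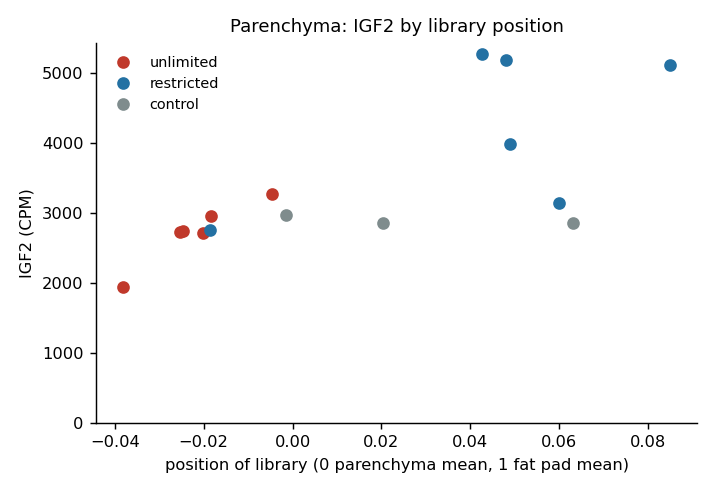
IGF2 level in CPM (linear axis from 0) of each parenchyma library against its position on the scale where 0 is parenchyma and 1 is fat pad; colours mark unlimited, restricted and control calves. Unlimited libraries lie at -0.0381 to -0.0047, and 5 of 6 restricted libraries lie to their right, at 3139 to 5262 CPM.

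Restricted against control parenchyma differed by 0.62 ± 0.24 in IGF2 (log2, SE; adjusted p 0.258, with 0.329% of genes called), and unlimited against control by 0.12 ± 0.16 (adjusted p 0.676, with 12.4% called). Under scaling by total gene count the difference of unlimited against control was -0.09, where the median of all genes was -0.22. IGF1, the ligand that mammary stroma supplies to the growing ducts, averaged 133 ± 40.6 CPM in unlimited, 155 ± 22.0 CPM in restricted and 118 ± 23.1 CPM in control parenchyma (SD, n = 6, 6 and 3). Its lowest, median and highest levels were 78.1, 139 and 189 CPM in unlimited and 131, 155 and 188 CPM in restricted libraries, and the controls had 126, 136 and 91.7 CPM.

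The IGF1 ranges overlapped between all 3 diets in parenchyma, although 3 of 6 unlimited libraries lay below every restricted library and 4 of 6 restricted libraries above every control. The log2 difference was -0.08 ± 0.19 for unlimited against restricted (edgeR adjusted p 0.830), 0.47 ± 0.17 for restricted against control (adjusted p 0.228) and 0.39 ± 0.26 for unlimited against control (adjusted p 0.365). GHR was similar in mean between diets, at 554 ± 126 CPM in unlimited, 584 ± 143 CPM in restricted and 527 ± 135 CPM in control parenchyma (SD, n = 6, 6 and 3). Its ranges were 391 to 714 CPM (median 535) in unlimited and 334 to 757 CPM (median 604) in restricted libraries, and the controls had 683, 445 and 452 CPM. The groups overlapped, and the log2 differences of 0.06 ± 0.18, 0.23 ± 0.24 and 0.28 ± 0.19 in the same order had adjusted p-values of 0.872, 0.713 and 0.367.

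**Figure D3:**
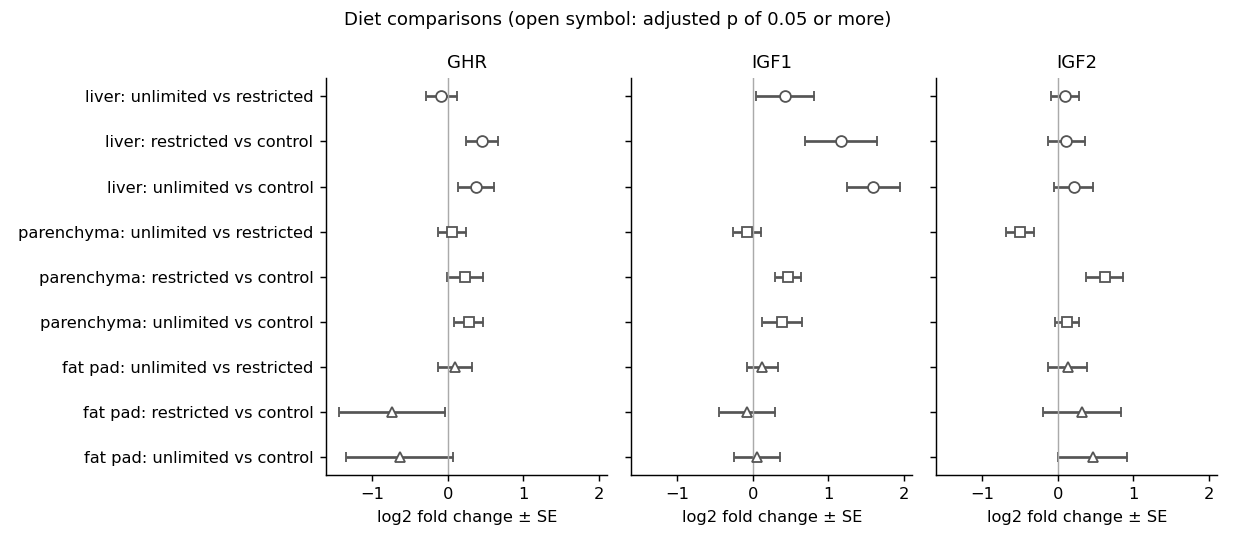
Log2 differences of GHR, IGF1 and IGF2 between diets in each tissue, with standard errors, from edgeR fits of the 2 groups compared; open symbols mark an adjusted p of 0.05 or more, and shapes mark tissues. The largest is IGF1 in unlimited against control livers at 1.60 ± 0.35, and the widest errors belong to GHR in the comparisons with fat pad control.

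In fat pad, unlimited and restricted calves had like means of all 3 genes. GHR averaged 198 ± 51.3 CPM in unlimited and 190 ± 69.9 CPM in restricted fat pad, IGF1 119 ± 15.7 and 111 ± 36.2 CPM, and IGF2 4695 ± 920 and 4312 ± 1732 CPM (SD, n = 6 each). In every case the unlimited libraries fell inside the range of the restricted ones. GHR spanned 119 to 254 CPM (median 213) in unlimited and 107 to 308 CPM (median 172) in restricted libraries, and IGF1 94.7 to 139 CPM (median 119) in unlimited and 67.3 to 159 CPM (median 112) in restricted libraries. IGF2 spanned 3683 to 6001 CPM (median 4597) in unlimited and 2231 to 7096 CPM (median 4180) in restricted libraries.

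The log2 differences between unlimited and restricted fat pad were 0.10 ± 0.22 for GHR, 0.13 ± 0.21 for IGF1 and 0.13 ± 0.26 for IGF2, with edgeR adjusted p-values of 0.929, 0.893 and 0.915. This comparison called 0% of 15203 genes in edgeR, with 1316 genes at an unadjusted p under 0.05, against 3 genes called by DESeq2 and 0 by limma voom.

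The fat pad control libraries, numbered 1, 2, 18 and 21, had GHR at 348, 482, 9.97 and 200 CPM. IGF1 stood at 86.4, 103, 46.2 and 162 CPM in them, and IGF2 at 2966, 2969, 678 and 5132 CPM. Library 18 was thus the lowest for each gene, with only 175 GHR counts, while libraries 1 and 2 had more GHR than any restricted or unlimited fat pad. The control mean of GHR was 260 ± 202 CPM (SD, n = 4), and the spread exceeded every difference between means.

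GHR differed by -0.74 ± 0.70 (log2, SE) between restricted and control fat pad and by -0.64 ± 0.70 between unlimited and control, with edgeR adjusted p-values of 0.473 and 0.524. In these comparisons 25.5% and 27.5% of genes were called. Without library 18 the differences were -1.14 (adjusted p 0.0111) and -1.04 (adjusted p 0.0117), and without the libraries numbered 1 and 2 they were 0.62 and 0.72, with neither called. The direction of GHR against control therefore depended on which control libraries were kept. IGF1 differed by -0.07 ± 0.37 and 0.06 ± 0.31, and IGF2 by 0.32 ± 0.52 and 0.46 ± 0.45, for restricted and unlimited fat pad against control, with adjusted p-values of 0.905, 0.899, 0.677 and 0.471. Without library 18 they were -0.34 and -0.20 for IGF1 and -0.02 and 0.12 for IGF2, and without libraries 1 and 2 they were -0.09 and 0.05 for IGF1 and 0.38 and 0.52 for IGF2. None of these was called, and the direction of IGF2 in restricted and of IGF1 in unlimited against control turned without library 18.

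Over the 3 tissues, 0 of 27 diet tests of these genes passed edgeR's threshold, and 6 had an unadjusted p under 0.05. Among all genes, edgeR called 0% to 27.5% in these comparisons. An unadjusted p under 0.05 was held by 1316 of 15203 genes in unlimited against restricted fat pad, the fewest. The most were 6344 of 15441 in unlimited against control fat pad, so the 6 tests do not set these genes apart. DESeq2 called 2 of the 27 and limma voom 0. Of all genes, DESeq2 called from 3 of 15177 (unlimited against restricted fat pad) to 5367 of 14649 (unlimited against control fat pad). In the same 2 comparisons voom called 0 of 15203 and 5994 of 15441. The diet effect of unlimited against restricted was also compared between tissues, and 0 of these 9 tests passed in edgeR, DESeq2 or voom, with 1 at an unadjusted p under 0.05 in edgeR. Among all genes, such an unadjusted p was held by 3792 of 15629 in parenchyma against liver and 2374 of 16077 in parenchyma against fat pad. In fat pad against liver it was held by 2123 of 16228. The exception by unadjusted p was IGF2 in parenchyma against liver, with a difference of effects of -0.58 ± 0.28 (log2, SE; p 0.0447, adjusted p 0.194), in a comparison that called 7.41% of genes. Scaling by total gene count gave -0.90 with an adjusted p of 0.0204, where the median of all genes was -0.36 and 2384 of 15629 genes were called.

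Parenchyma against fat pad gave -0.64 ± 0.33 for IGF2 (adjusted p 0.372, with 0.778% of genes called) and smaller differences of effects for GHR (-0.05 ± 0.31) and IGF1 (-0.22 ± 0.29). Fat pad against liver called 0% of 16228 genes in edgeR, with 2123 at an unadjusted p under 0.05, 156 called by DESeq2 and 6 by voom. There the differences of effects were 0.20 for GHR, -0.28 for IGF1 and 0.06 for IGF2.

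GHR was lower in fat pad than in the other tissues. Over the 12 restricted and unlimited libraries of each tissue, GHR averaged 379 ± 92.3 CPM in liver, 569 ± 129 CPM in parenchyma and 194 ± 58.6 CPM in fat pad (SD). The GHR log2 difference was 1.89 ± 0.16 for parenchyma against fat pad (edgeR adjusted p 2.12e-12) and 1.77 ± 0.16 for liver against fat pad (adjusted p 4.09e-12). Calls were frequent in these comparisons, at 62.4% of genes for parenchyma against fat pad, 77.3% for liver against fat pad and 75.1% for liver against parenchyma. GHR in liver and parenchyma did not differ past the threshold (-0.12 ± 0.16, adjusted p 0.494).

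Scaling mattered here, because TMM factors were 0.679 to 0.942 in these livers and 1.23 to 1.46 in these fat pads. By total gene count in place of TMM, the median of all genes shifted by -0.449 (log2) for liver against parenchyma, -0.818 for liver against fat pad and -0.332 for parenchyma against fat pad. GHR stayed called with its direction against fat pad under both scalings, at 0.97 for liver and 1.55 for parenchyma by total count. Between liver and parenchyma it was -0.59 by total count, with an adjusted p of 0.000933. Of 16780 genes, total count called 13142 for liver against parenchyma, 14146 for liver against fat pad and 11552 for parenchyma against fat pad.

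**Figure D4:**
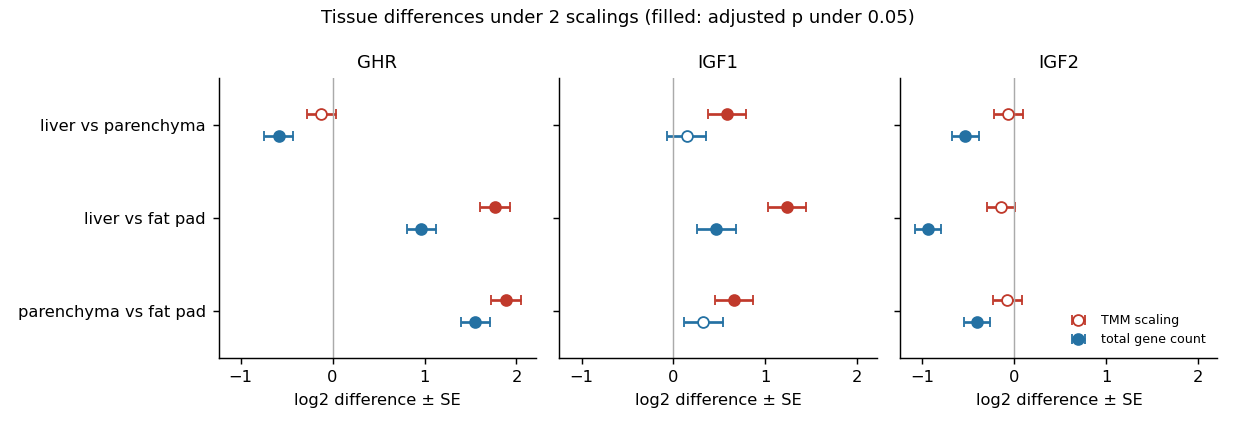
Log2 differences of GHR, IGF1 and IGF2 between tissues over restricted and unlimited libraries, with standard errors, on TMM-scaled counts and on total gene counts; filled symbols mark an adjusted p under 0.05. GHR lies above 0 against fat pad under both scalings, and IGF2 lies near 0 on TMM-scaled counts but at -0.94 for liver against fat pad on total gene counts.

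IGF1 averaged 162 ± 90.4 CPM in liver, 144 ± 33.2 CPM in parenchyma and 115 ± 27.0 CPM in fat pad (SD, n = 12 each), with the widest spread in liver. It was higher in liver than in fat pad by 1.24 ± 0.21 (log2, SE; edgeR adjusted p 2.18e-06), and this call held by total gene count at 0.47 (adjusted p 0.0390). Liver exceeded parenchyma by 0.58 ± 0.21 (adjusted p 0.0116) and parenchyma exceeded fat pad by 0.66 ± 0.21 (adjusted p 0.00597). Neither held by total gene count, with 0.14 (adjusted p 0.541) and 0.32 (adjusted p 0.169), and the first was also lost without the libraries numbered 8 (adjusted p 0.0772). Split by diet, liver against parenchyma was 0.82 ± 0.29 in unlimited calves (adjusted p 0.0144) and 0.34 ± 0.29 in restricted calves (adjusted p 0.299), and the test of the diet effect in parenchyma against liver was -0.50 ± 0.44 with an adjusted p of 0.523.

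IGF2 ran the other way in plain CPM, at 2357 ± 413 CPM in liver, 3479 ± 1131 CPM in parenchyma and 4504 ± 1337 CPM in fat pad (SD, n = 12 each). On TMM-scaled counts its log2 differences were -0.07 ± 0.16 for liver against parenchyma, -0.15 ± 0.16 for liver against fat pad and -0.08 ± 0.16 for parenchyma against fat pad, with edgeR adjusted p-values of 0.714, 0.399 and 0.685. By total gene count they were -0.53, -0.94 and -0.41, with adjusted p-values of 0.00113, 3.11e-07 and 0.0126. The order of the tissues in IGF2 thus rests on the scaling.

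Within tissues, GHR and IGF1 varied together between libraries in liver and oppositely in the mammary tissues. Pearson's r of log2(CPM + 0.5), over 12 restricted and unlimited libraries with diet means removed, was 0.874 in liver (Spearman's rho 0.839, permutation p 0.00181 for r and 0.00225 for rho, adjusted p 0.00407 and 0.00491). The livers with the most GHR, unlimited number 9 and restricted number 8, had IGF1 at 279 and 324 CPM. Without these 2, which lie farthest from the median of GHR, r was 0.739, and within diets it was 0.746 in unlimited and 0.963 in restricted livers.

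In parenchyma the r of GHR with IGF1 was -0.686 (rho -0.839, permutation p 0.00778 and 0.00210, adjusted p 0.0117 and 0.00491), and without the 2 farthest libraries it was -0.922. In fat pad it was -0.830 (rho -0.811, permutation p 0.00119 and 0.00273, adjusted p 0.00357 and 0.00491), and -0.780 without the 2 farthest. Both diets showed the negative sign in both mammary tissues, at -0.703 for unlimited and -0.904 for restricted parenchyma and -0.763 and -0.901 for unlimited and restricted fat pad. The restricted fat pads with the most and least GHR, numbers 4 and 13, had 308 and 107 CPM of it and 74.9 and 159 CPM of IGF1.

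**Figure D5:**
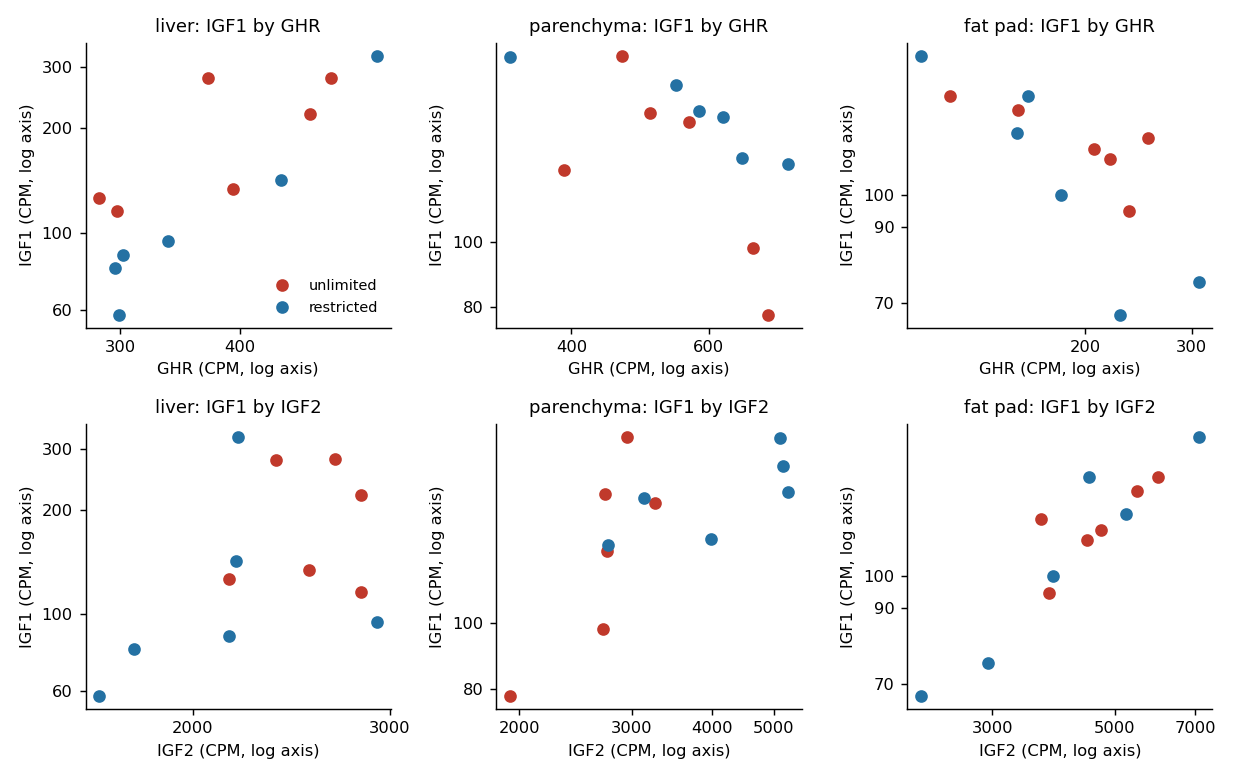
IGF1 level against GHR level (upper row) and against IGF2 level (lower row) in liver, parenchyma and fat pad, in CPM on log axes; points are unlimited and restricted libraries, before diet means are removed. GHR and IGF1 are high together in liver (r 0.874 with diet means removed) and run oppositely in parenchyma (r -0.686) and fat pad (r -0.830).

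The difference of r for GHR with IGF1 was 1.56 between liver and parenchyma and 1.70 between liver and fat pad, with permutation p-values of 4e-05 and 5e-05 and an adjusted p of 0.000225 for each. Between parenchyma and fat pad it was 0.144 (permutation p 0.271, adjusted p 0.292). These 9 differences, over 3 pairs of genes and 3 pairs of tissues, and the values within diets were added after the data were seen. Their permutations treat libraries of different tissues as separate samples, although the labels do not say whether tissues share calves.

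The ligand genes IGF1 and IGF2 varied together in the mammary tissues. Their r was 0.926 in fat pad (rho 0.881, permutation p 0.000340 and 0.00264, adjusted p 0.00306 and 0.00491; 0.857 without the 2 farthest libraries) and 0.635 in parenchyma (rho 0.699, permutation p 0.00608 and 0.00480, adjusted p 0.0109 and 0.00720; 0.567 without the 2 farthest). In liver it was 0.289 (rho 0.434, permutation p 0.448 and 0.180, adjusted p 0.456 and 0.203; 0.110 without the 2 farthest). The differences of r between liver and fat pad (-0.637, adjusted p 0.0989) and between liver and parenchyma (-0.346, adjusted p 0.292) did not pass the permutation test.

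GHR and IGF2 ran oppositely in fat pad, with an r of -0.876 (rho -0.937, permutation p 0.000720 and 4e-05, adjusted p 0.00324 and 0.000360; -0.804 without the 2 farthest). In parenchyma r was -0.607 and missed the threshold while rho was -0.706 and passed it (permutation p 0.0463 and 0.0115, adjusted p 0.0595 and 0.0147; r -0.700 without the 2 farthest). Liver gave 0.264 (rho 0.308, permutation p 0.456 and 0.335, adjusted p 0.456 and 0.335; r 0.407 without the 2 farthest). The difference of r between liver and fat pad was 1.14, with an adjusted permutation p of 0.0119, and between liver and parenchyma 0.871, with 0.0646.

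The values of a library share its preparation and its gene total, and other library measures moved with them. In fat pad the share of counts held by the 10 most counted genes had an r of -0.770 with GHR, 0.811 with IGF1 and 0.853 with IGF2 over the 12 libraries, as a description. IGF2 ranked 10 by mean CPM in unlimited and 11 in restricted fat pad, so its own counts can enter that share. In parenchyma, position between the tissues had an r of -0.614 with GHR, 0.456 with IGF1 and 0.653 with IGF2. In liver the share of assigned reads had an r of -0.446 with IGF1 and -0.203 with GHR. The part of these measures in the relations between the genes was not tested.

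Over the 36 restricted and unlimited libraries of the 3 tissues, the genes whose log2 levels were most like GHR among 15929 genes were ENSBTAG00000015248 (Pearson's r 0.888) and ENSBTAG00000010579 (r 0.885). ENSBTAG00000015248 averaged 32.0 CPM in liver, 67.2 CPM in parenchyma and 16.6 CPM in fat pad. Most like IGF2 were ENSBTAG00000048501 (r 0.854) and ENSBTAG00000001468 (r 0.844). ENSBTAG00000048501 was near the floor, at 0.016 CPM in liver, 1.81 CPM in parenchyma and 6.15 CPM in fat pad. ENSBTAG00000001468 averaged 79.2 CPM in liver, 102 CPM in parenchyma and 152 CPM in fat pad. For IGF1 the closest were ENSBTAG00000014390 and ENSBTAG00000004672, with an r of 0.616 each, so no gene followed IGF1 as closely as these followed GHR and IGF2. These values are descriptions, on plain CPM, of libraries that share tissue differences, and those of IGF2 rest on the scaling.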

How the data were processed

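The authors' deposited read counts, made with HTSeq 1.99.2 after STAR 2.7.8 alignment (build ARS-UCD1.2; all per the submitters' processing notes), were used as they stand. Each table lists 27607 Ensembl genes and 5 summary entries, which were left out of totals and tests; reads assigned to genes were 21.7% to 46.4% of uniquely placed reads. No source used here gives strand or multi-read settings, so overlapping and antisense genes cannot be told apart.

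Groups followed the tissue and diet labels, with 47 of 48 samples used. edgeR 4.0.16 in R 4.3.3 (TMM, filterByExpr with minimum count 10 and minimum total 15, robust fit, quasi-likelihood F test) was fitted on all genes, with the 2 groups compared for diets, 4 groups for interactions and the 6 restricted and unlimited groups for tissues. Errors are standard errors from the F statistic. DESeq2 1.42.0, limma 3.58.1 voom, other scalings, covariates, left-out libraries and a block were tried as alternatives, and the fits were tested on simulated counts. Levels are CPM on plain gene totals. Relations used 100000 permutations, two-sided, within diet. No pair of replicates agreed within sampling noise.

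The members and lists were chosen with earlier results of these data known. Genes were named by selection, or as the 2 identifiers with the highest r to each member among genes of at least 1 CPM in a tissue. A RefSeq table of another assembly matched 0 identifiers, so a pathway list and a cell type marker list could not be run, and no sequence or coordinate was used.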

Additional observations from a re-analysis of the deposited data

Results flagged for a closer look

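Among 24 combinations of gene and group with 4 to 6 libraries, 1 held a library far from the others, where chance gives about 1 in 20. IGF1 in the restricted liver numbered 8 was 324.2 CPM, against 58.16 to 142.3 CPM in the other 5 restricted livers. The same liver had the highest GHR of its group, at 554 CPM. Without it, the IGF1 log2 difference was 0.86 (edgeR adjusted p 0.142) between unlimited and restricted livers and 0.74 (adjusted p 0.304) between restricted and control livers.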

How the results depend on the processing

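Log2 differences of settings that changed a direction or a call follow, and the cause was not tested. Scaling by total gene count gave, for unlimited against restricted, GHR 0.055 in liver and -0.077 in parenchyma, and IGF2 -0.64 in parenchyma (called). It gave IGF2 -0.087 in unlimited against control parenchyma and IGF1 0.15 in restricted against control fat pad. In the diet effect it gave GHR -0.13 and IGF2 -0.90 (called) for parenchyma against liver and IGF2 -0.13 for fat pad against liver. Between tissues it gave GHR -0.59, IGF1 0.14 and IGF2 -0.53 for liver against parenchyma, IGF2 -0.94 for liver against fat pad, and IGF1 0.32 and IGF2 -0.41 for parenchyma against fat pad. Upper quartile factors gave IGF1 0.029 in restricted against control fat pad, IGF2 -0.0030 in the diet effect of fat pad against liver, IGF1 0.43 for liver against parenchyma and IGF2 -0.38 for liver against fat pad. DESeq2 called IGF1 in unlimited against control livers (1.58) and IGF2 in unlimited against restricted parenchyma (-0.50), and all 9 groups in 1 fit called the first (1.61). Position as a covariate gave GHR -0.54, IGF1 0.28 and IGF2 0.038 in unlimited against restricted parenchyma. In restricted against control fat pad it gave GHR 7.10, IGF1 2.52 and IGF2 4.81, and in unlimited against control fat pad GHR 7.25, where position and group nearly coincide. The assigned share as a covariate gave IGF1 0.067 in restricted and -0.10 in unlimited against control fat pad, and voom -0.061 in the second. Without the libraries titled as parenchyma, GHR was 0.62 in restricted and 0.72 in unlimited against control fat pad. With control libraries included, IGF1 in liver against parenchyma was 0.24. On TMM-scaled CPM the difference of r of GHR with IGF2 between liver and parenchyma was 1.089, with an adjusted permutation p of 0.0395.

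Leaving out each library in turn gave, for unlimited against restricted, GHR between -0.18 and 0.026 in liver, -0.066 and 0.16 in parenchyma, and -0.013 and 0.28 in fat pad. IGF1 lay between -0.22 and 0.043 in parenchyma, and IGF2 between -0.59 and -0.39 in parenchyma and -0.014 and 0.36 in fat pad. For unlimited against control, IGF1 lay between 1.43 and 1.96 in liver and -0.20 and 0.40 in fat pad, and GHR between -1.04 and -0.16 in fat pad. For restricted against control, IGF2 lay between -0.034 and 0.25 in liver, and fat pad had GHR -1.14 to -0.26, IGF1 -0.34 to 0.27 and IGF2 -0.016 to 0.72. In the diet effect, GHR lay between -0.26 and 0.10 for parenchyma against fat pad and -0.047 and 0.33 for parenchyma against liver, and fat pad against liver had IGF1 -0.65 to 0.023 and IGF2 -0.20 to 0.35. Liver against parenchyma had IGF1 0.36 to 0.66 and IGF2 -0.18 to 0.014. In all, 319 of the values under another setting and 464 of those without 1 library kept their direction and side of the threshold.

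The labels do not say whether a sample number marks the same calf across tissues, and the numbers were not taken as pairs because not every correlation of deviations exceeded 0.1. Correlations of same-numbered libraries were -0.0535 to 0.235, over 0.1 for 8 of 12 numbers in liver and parenchyma, 7 in parenchyma and fat pad and 3 in liver and fat pad. In these, 8, 8 and 6 of 12 libraries correlated best with their own number among those of their diet. This is an untested hint of shared origin from the data and not from the design. With a replicate block no call of the 3 genes changed (IGF1 in liver against parenchyma 0.49, adjusted p 0.0163), while genes called in the diet effect of parenchyma against fat pad numbered 322, against 125 without the block. DESeq2 called 386 genes in unlimited against restricted livers, 543 in restricted and 282 in unlimited against control livers, and 650 in restricted against control parenchyma, where edgeR called 2, 121, 68 and 49; it called 479 in the diet effect of parenchyma against fat pad and 1808 in that of parenchyma against liver, where edgeR called 125 and 1158. voom gave 110, 61, 35, 77 and 375 in the first 5 of these comparisons, all 9 groups in 1 fit 104 in unlimited against restricted and 166 in unlimited against control livers, and no filter 16 in the first, 101 in restricted against control parenchyma and 76 in the diet effect of parenchyma against fat pad. In unlimited against restricted and against control parenchyma, edgeR's 1777 and 1881 calls became 4 and 61 with position as a covariate and 1042 and 997 with all 9 groups in 1 fit, and in restricted and unlimited against control fat pad 4010 and 4244 became 7014 and 6801 with all 9 groups. The assigned share as a covariate left 0 calls in unlimited against restricted and in restricted against control livers, 711 in unlimited against restricted and 122 in restricted against control parenchyma, and counting the libraries titled as parenchyma as its controls gave 198 in the last. Total gene count scaling gave 67 in restricted against control livers. Scaling by total gene count moved the called genes of unlimited against restricted parenchyma to 728 higher and 1771 lower, against 1110 and 667 with TMM; the split was 784 and 2337 against 1122 and 759 in unlimited and 38 and 42 against 34 and 15 in restricted against control parenchyma, 2624 and 1316 against 2129 and 2115 in unlimited and 2513 and 1245 against 1982 and 2028 in restricted against control fat pad. In the diet effect it was 60 and 81 against 98 and 27 for parenchyma against fat pad and 452 and 1932 against 815 and 343 for parenchyma against liver. Between tissues it was 4083 and 9059 against 6295 and 6299 for liver against parenchyma, 3033 and 11113 against 6267 and 6698 for liver against fat pad, and 3141 and 8411 against 5171 and 5303 for parenchyma against fat pad. The lowest count of the 3 genes, GHR in fat pad control 18, was 175, at a depth of 17.5 M.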
